A study of Mus musculus with 104 samples.

Results

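Striatum and cortex of the same 8 wild-type (WT) mice were compared gene by gene at 6 months of age. The comparison used 16 RNA-seq libraries, 1 from the striatum and 1 from the cortex of each mouse, of 104 libraries in the series. They were taken by the genotype, age and tissue labels and paired by the animal tag in the titles. All 8 mice had the FvB background and were littermates of BAC-CAG mice, a Huntington's disease model that carries human huntingtin with an expanded CAG repeat on a bacterial artificial chromosome. The WT mice lack this transgene. There were 4 females (animals 1, 2, 7 and 8) and 4 males (animals 3, 4, 5 and 6). Mice were perfused with PBS, the regions were dissected and frozen, and total RNA went into TruSeq libraries read as 69-base pairs on a HiSeq 4000. Both the sample labels and the series text call the protocol stranded, but the labels name a stranded TruSeq kit and the series text another TruSeq kit. For values side by side, the same contrast was fitted in 5 WT mice of 2 months, 8 WT mice of 12 months and 8 BAC-CAG mice of 6 months.

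Most neurons of the striatum are GABAergic spiny projection neurons, which receive glutamate from cortex and thalamus and dopamine from the midbrain. Direct-pathway neurons carry the D1 dopamine receptor and indirect-pathway neurons the D2 receptor, and both receptors act through cyclic AMP (cAMP). Cortex consists mainly of layered glutamatergic pyramidal neurons with a minority of GABAergic interneurons. The striatum also holds large cholinergic interneurons, and bundles of myelinated axons cross it.

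Levels are counts per 1000000 counts of the library (CPM), scaled by edgeR's TMM factors, and are given as the lowest, median and highest of 8 libraries. A difference is the log2 ratio of striatum to cortex with its standard error (SE), so a positive value is higher in striatum. A gene was called when its Benjamini-Hochberg adjusted p from edgeR's quasi-likelihood test, with the animal as a block, was under 0.05. The 16 libraries held 25.8 M to 42.8 M counts, 33.9 ± 4.78 M in striatum and 31.7 ± 3.78 M in cortex (SD, n = 8 each; 1 M is 1000000 counts). Striatum libraries were larger by 2.21 ± 2.10 M counts (SD over 8 pairs, 6 of 8 higher, two-sided exact sign-flip permutation p = 0.0312). Without single animals this difference ran from 1.80 to 2.59 M and its permutation p was 0.0625 in 6 of the 8 cases. The 13 mitochondrially encoded protein genes took 7.34% of counts in striatum and 5.95% in cortex. Their share was higher in striatum in 8 of 8 mice (permutation p = 0.00781, the smallest that 8 pairs allow).

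The tissue labels fitted the defining markers in all 16 libraries, but markers of neighbouring tissue varied between animals. The 29 core genes of projection neurons summed to between 18860 and 24400 CPM in striatum and between 3473 and 3785 CPM in cortex. Thalamic neuron markers summed to 46.8 to 54.8 CPM in cortex, whereas the striatum libraries ran from 43.2 CPM in animal 6 to 440.5 CPM in animal 5, with 204 CPM in animal 1 and 236 CPM in animal 3. Choroid plexus and ependymal markers also stood highest in the striatum of animal 5, at 459.7 CPM against at most 154.5 CPM in the other 7. A sum of 9 cortical genes reached 0.906% to 7.17% of its cortex level in the striatum libraries. A sum of 9 striatal genes reached 0.469% to 0.668% of its striatum level in cortex. The striatal 9 are Six3, Drd2, Adora2a, Sh3rf2, Syndig1l, Rgs9, Isl1, Slc10a4 and Ptpn7. All are among the largest differences or smallest p of these same libraries, so a low share in cortex follows from that choice. Results were therefore also computed without animals 1, 3 and 5, the mice with the highest thalamic sums. In the plot of marker sums by animal these libraries can be picked out.

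**Figure D1:**
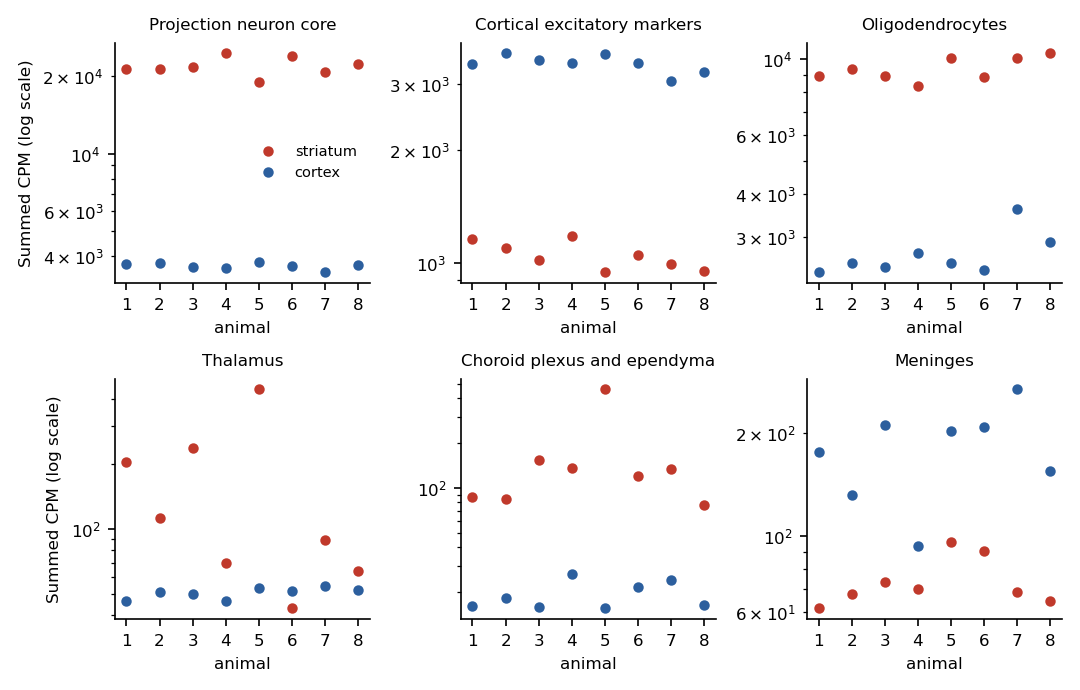
Summed level of 6 marker lists in each library (CPM, log scale) by animal; red points are striatum and blue points cortex. Projection neuron and oligodendrocyte sums separate the tissues in every animal, whereas the thalamic sum in striatum runs from 43.2 to 440.5 CPM.

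Most measured genes differed between the regions, mainly by small amounts. Of 48795 genes in the table, 17805 passed the filter on low counts and 12818 of these were called (72%), 6588 higher in striatum (37%) and 6230 higher in cortex (35%). The difference was under 1.5-fold for 60.7% of the called genes. At least 2-fold differences were called for 1447 genes higher in striatum (8.13%) and 1424 higher in cortex (8%). Of the 17805 tested genes, 173 were called at least 16-fold higher in striatum and 105 in cortex. At least 64-fold differences were called for 68 and 25. Transcripts of the other tissue limit such ratios: 9 cortical genes summed to 0.906% to 7.17% of their cortex level in striatum libraries. The 9 striatal genes summed to 0.469% to 0.668% of their striatum level in cortex. The part of this in the unequal counts was not tested. In 6291 genes (35.3%) the 8 striatum libraries did not overlap with the 8 cortex libraries. The genes at least 2-fold higher in striatum took 8.91% of all counts there and 2.37% in cortex, and those of cortex took 9.69% in cortex and 3.28% in striatum. Leaving out animals 1, 3 and 5 gave 1443 and 1534 genes at least 2-fold apart, and 2736 genes were in both sets. In tissue RNA, fewer cells of a type and less RNA per cell cannot be told apart.

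**Figure D2:**
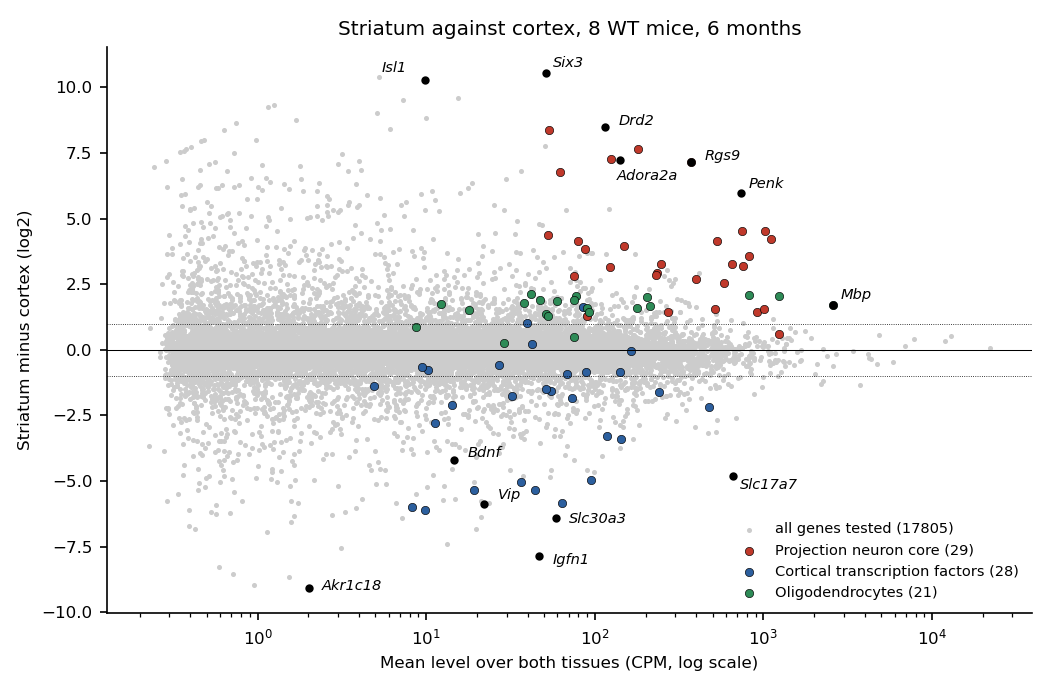
Striatum minus cortex difference (log2) of the 17805 genes tested against their mean level over both tissues (CPM, log scale); dotted lines mark 2-fold. Core projection neuron genes (red) lie above 0, oligodendrocyte genes (green) lie above 0 and most cortical transcription factors (blue) lie below.

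The listed genes that mark striatal projection neurons were higher in striatum without exception. This list, like the other gene lists here, was chosen with earlier results of these data known. Its share of calls is therefore not independent of these data. All 29 of the core list were called, 28 of them at least 2-fold, against 37% of all tested genes called higher in striatum, and the list median was 3.28 on the log2 scale against 0.02 for all tested genes. Rgs9, which speeds the switching off of G proteins behind D2 and opioid receptors, stood at 630, 723 and 861 CPM in striatum and 4.47, 5.17 and 5.86 CPM in cortex. These ranges lie far apart, and the difference was 7.15 ± 0.061 (adjusted p = 1.21e-19). Ppp1r1b encodes DARPP-32, a phosphatase inhibitor switched on by protein kinase A, and had 1699, 1942 and 2285 CPM in striatum and 68.9, 81.4 and 123 CPM in cortex. All 8 mice had more of it in striatum, by 4.52 ± 0.081 (adjusted p = 6e-16). The sodium channel subunit Scn4b differed by 3.20 and the small GTPase Rasd2 (Rhes) by 2.71. Sh3rf2 at 8.38, Syndig1l at 7.64 and Lrrc10b at 7.28 were the largest of the list. The smallest was Itpr1, the inositol trisphosphate receptor of the endoplasmic reticulum, at 0.62. Without animals 1, 3 and 5 all 29 genes were again called, with a median of 3.32.

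Markers of both projection neuron classes were higher in striatum. Of 9 direct-pathway genes 9 were called higher in striatum (median 2.33). Drd1, the D1 receptor gene, had 199, 241 and 249.9 CPM in striatum and 4.88, 5.44 and 6.75 CPM in cortex. No libraries overlapped and the difference was 5.37 ± 0.067 (adjusted p = 1.28e-17). Tac1, the precursor of substance P, had 102, 136 and 142 CPM in striatum and 2.67, 2.94 and 4.74 CPM in cortex, a difference of 5.34 ± 0.069 (adjusted p = 1.64e-17). Pdyn, the dynorphin precursor, separated the tissues less, with 73.3, 95.5 and 129 CPM against 21.5, 23.2 and 27.5 CPM and a difference of 2.03 ± 0.088 (adjusted p = 1.35e-11). The muscarinic M4 receptor gene Chrm4 differed by 1.14, the transporter-like gene Slc35d3 by 6.50 and the transcription factor Ebf1 by 2.33. Eya1 and Sfxn1 were called at 0.23 and 0.41. The summed direct-pathway level was lowest in the striatum of animal 5, at 582.1 CPM against 677.5 to 735.4 CPM in the other 7.

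Indirect-pathway genes had a larger median ratio. Of 6 measured genes 5 were higher in striatum and 1 was lower (median 6.40). Drd2, the D2 receptor gene, had 189, 221 and 281 CPM in striatum and 0.371, 0.625 and 0.883 CPM in cortex. All cortex libraries lay below 1 CPM, and the difference was 8.48 ± 0.085 (adjusted p = 1.24e-18). Adora2a encodes the adenosine receptor of indirect-pathway neurons, which opposes D2 signalling in the same cells, and had 235, 283 and 325 CPM against 1.17, 1.74 and 2.77 CPM, a difference of 7.23 ± 0.092 (adjusted p = 1.59e-17). Penk, the enkephalin precursor, had 1140, 1418 and 1801 CPM in striatum and 12.6, 21.9 and 31.4 CPM in cortex, and differed by 5.97 ± 0.13 (adjusted p = 7.36e-15). The orphan receptor gene Gpr6 differed by 6.83 and the transcription factor Sp9 by 2.78. Plxdc1, listed as an indirect-pathway marker, was slightly higher in cortex (-0.27 ± 0.057, adjusted p = 0.000643), with overlapping libraries.

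The proximal promoters of 7 marker genes, 4 of striatum and 3 of cortex, show the sequence at which these transcripts start. Each is the 250 bases before the start site, 5′ to 3′ on the gene's strand, from RefSeq on GRCm38.p6. Capitals mark matches, on either strand, to 5 short motifs: the cAMP response element TGACGTCA, the GC box GGGCGG, the TATA box TATAAA, an E-box CAGATG and a homeobox core TAATTA.
Drd1 (chr13:54055659-54055908, minus strand): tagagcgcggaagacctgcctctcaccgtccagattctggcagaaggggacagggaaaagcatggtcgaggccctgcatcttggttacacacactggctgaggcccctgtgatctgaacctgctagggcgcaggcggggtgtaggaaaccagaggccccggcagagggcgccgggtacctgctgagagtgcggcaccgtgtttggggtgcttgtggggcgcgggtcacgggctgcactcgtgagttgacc
Drd2 (chr9:49340153-49340402, plus strand): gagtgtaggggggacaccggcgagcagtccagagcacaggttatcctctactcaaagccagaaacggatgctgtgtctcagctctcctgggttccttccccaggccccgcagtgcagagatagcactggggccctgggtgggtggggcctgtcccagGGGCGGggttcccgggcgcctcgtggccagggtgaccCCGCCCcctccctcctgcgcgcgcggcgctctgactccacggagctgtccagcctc
Gpr6 (chr10:41072291-41072540, minus strand): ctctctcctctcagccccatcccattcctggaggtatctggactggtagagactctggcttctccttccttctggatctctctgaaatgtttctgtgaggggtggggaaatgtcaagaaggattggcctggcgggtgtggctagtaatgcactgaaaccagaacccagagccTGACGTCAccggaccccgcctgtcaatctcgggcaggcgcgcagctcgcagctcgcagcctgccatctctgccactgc
Tac1 (chr6:7554811-7555060, plus strand): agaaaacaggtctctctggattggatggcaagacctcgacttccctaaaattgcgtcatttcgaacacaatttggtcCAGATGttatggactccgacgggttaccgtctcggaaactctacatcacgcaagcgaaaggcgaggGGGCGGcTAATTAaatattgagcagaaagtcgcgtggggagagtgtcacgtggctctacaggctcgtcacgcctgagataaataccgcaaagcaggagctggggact
Slc17a7 (chr7:45163671-45163920, plus strand): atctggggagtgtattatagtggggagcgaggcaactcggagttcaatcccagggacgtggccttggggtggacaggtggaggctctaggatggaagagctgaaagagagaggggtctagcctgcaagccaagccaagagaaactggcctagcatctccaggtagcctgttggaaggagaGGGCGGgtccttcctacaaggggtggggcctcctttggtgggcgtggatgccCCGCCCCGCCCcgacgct
Neurod2 (chr11:98329646-98329895, minus strand): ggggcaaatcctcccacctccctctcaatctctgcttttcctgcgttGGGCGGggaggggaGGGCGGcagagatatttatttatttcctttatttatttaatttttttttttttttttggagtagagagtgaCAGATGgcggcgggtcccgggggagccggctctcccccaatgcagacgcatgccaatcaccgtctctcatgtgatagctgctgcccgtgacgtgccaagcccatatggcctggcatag
Vip (chr10:5638968-5639217, plus strand): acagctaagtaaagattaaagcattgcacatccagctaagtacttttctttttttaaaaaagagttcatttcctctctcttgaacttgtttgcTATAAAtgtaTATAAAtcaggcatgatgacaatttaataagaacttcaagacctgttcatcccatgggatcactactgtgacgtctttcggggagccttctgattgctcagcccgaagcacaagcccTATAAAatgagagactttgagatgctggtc
The windows of Drd1 and Drd2 differ in that none of the 5 motifs matched in the first and 2 GC boxes matched in the second. Gpr6 has 1 cAMP response element, and Vip has 3 TATA matches, 1 of them 30 bases before the start. The GC box was in 51.2% of 942 promoters of genes at least 2-fold higher in striatum, 50.1% of 906 higher in cortex and 57.8% of 11776 tested genes. The cAMP response element was in 1.38%, 2.21% and 2.69%, and the TATA box in 9.13%, 9.49% and 6.48% of the same promoters. The E-box was in 14.2%, 12.8% and 10.3%, and the homeobox core in 3.08%, 3.75% and 2.43%. Over all 27025 promoters of the table the shares were 33.1% for the GC box, 1.62% for the cAMP response element, 13% for the TATA box, 14.5% for the E-box and 4.9% for the homeobox core. None of the 5 motifs contains another, and 2 of the 3 GC box matches of Slc17a7 share 1 base. A match describes letters only. RefSeq lists 2 windows for Drd1; the one with its start nearest the annotated gene start was searched, and it partly overlaps the gene as GENCODE annotates it.

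Dopamine signalling genes were higher in striatum throughout the measured list, although dopamine neurons themselves lie elsewhere. All 10 of the genes tested (of 12 listed) were called higher in striatum, with a median of 2.92. The D3 receptor gene Drd3 was low, with 1.27, 1.92 and 2.98 CPM in striatum and 0, 0.0195 and 0.0883 CPM in cortex, and differed by 5.75 ± 0.31 (adjusted p = 4.32e-14). Drd5 differed by 2.75, but 48.6% of its exon length overlaps an antisense gene, so its reads are uncertain. Th, which makes L-DOPA, had 4.29, 4.96 and 8.59 CPM in striatum and 0.304, 0.628 and 1.03 CPM in cortex, without overlap (3.08 ± 0.12, adjusted p = 3.92e-12). The monoamine oxidases, which break dopamine down, differed less, with Maoa at 0.29 and Maob at 0.37. Drd4 and the dopamine transporter gene Slc6a3 did not pass the filter on low counts. Per kilobase of exon, Drd2 stood at 89.9 and Drd1 at 65 RPKM in striatum.

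The genes of cAMP signalling were not higher in 1 region as a whole, and members of each family differed in opposite directions. Counts of called genes in this and the other gene families stand beside 37% of all tested genes called higher in striatum and 35% higher in cortex. Among 10 adenylyl cyclases, which make cAMP, 2 were called higher in striatum and 6 higher in cortex (median -0.71). Adcy5 had 1298, 1510 and 1700 CPM in striatum and 114, 125 and 139 CPM in cortex, without overlap, and differed by 3.59 ± 0.059 (adjusted p = 2.72e-16). On the per-length scale Adcy5 made up 68.7% of the summed cyclase level in striatum (210.1 RPKM) and 7.65% in cortex (17.4 RPKM). Adcy1, a calcium-activated cyclase, held the first place in cortex with 114 RPKM, 50% of the sum, against 42.1 RPKM and 13.8% in striatum. Its CPM difference was -1.43 ± 0.058 (adjusted p = 6.1e-12), close to that of Adcy2 (-1.45) and Adcy6 (-1.58).

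Phosphodiesterases, which break cyclic nucleotides down, had 10 of 18 members called higher in striatum and 7 higher in cortex (median 0.34), beside 37% and 35% of all tested genes. Pde10a had 1740, 2068 and 2351 CPM in striatum and 71.3, 122 and 133 CPM in cortex and differed by 4.23 ± 0.1 (adjusted p = 2.25e-14). Pde1b, a calmodulin-dependent enzyme, differed by 3.28, Pde1c by 3.29 and Pde7b by 2.41. Together Pde1b and Pde10a led the striatal list per length, at 219 and 163 RPKM. More than 1 gene entry carries the symbol Pde2a, and the list and its ranking hold only 1 of them (5.15 RPKM in striatum). Pde1a, the paralogue of Pde1b, went the other way at -2.23, as did Pde5a at -2.38.

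Protein kinase A subunits also differed in opposite directions. Of 15 genes of the kinase and its regulators 8 were called higher in striatum and 6 in cortex (median 0.13). The regulatory subunit Prkar2b was higher in striatum (1.42 ± 0.044, adjusted p = 2.9e-13) and Prkar1b higher in cortex (-1.41 ± 0.038, adjusted p = 5.07e-14). The catalytic subunits differed little, with Prkaca at -0.11 and Prkacb at 0.13. Arpp21 at 1.44 and the kinase anchor Akap5 at 1.11 were higher in striatum.

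Among G protein subunits 14 of 26 were called higher in striatum and 11 higher in cortex (median 0.14). Gnal encodes the stimulatory alpha subunit Golf and had 882, 1003 and 1110 CPM in striatum and 157, 169 and 192 CPM in cortex, a difference of 2.55 ± 0.05 (adjusted p = 1.6e-15). Gnas, the widely used stimulatory alpha subunit, was lower in striatum (-1.08 ± 0.053, adjusted p = 5.71e-11), with 22% of its exon length overlapping antisense genes. Per length, Gnal stood at 89.6 and Gnas at 41 RPKM in striatum, and at 15.3 and 86 RPKM in cortex. Gng7, the gamma subunit that pairs with Golf, had 16.2 RPKM in cortex and 376 RPKM in striatum and was the first of the subunits there. Its levels were 1240, 1409 and 1613 CPM in striatum and 55.4, 61.3 and 71.2 CPM in cortex (4.54 ± 0.06, adjusted p = 2.27e-17). Gnb5, the partner of Rgs9, differed by 1.59 and Gnb4 by 1.31. In cortex Gng2 (-1.60) and Gng3 (-1.01) were higher, and both overlap antisense genes over more than 20% of their exons.

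**Figure D3:**
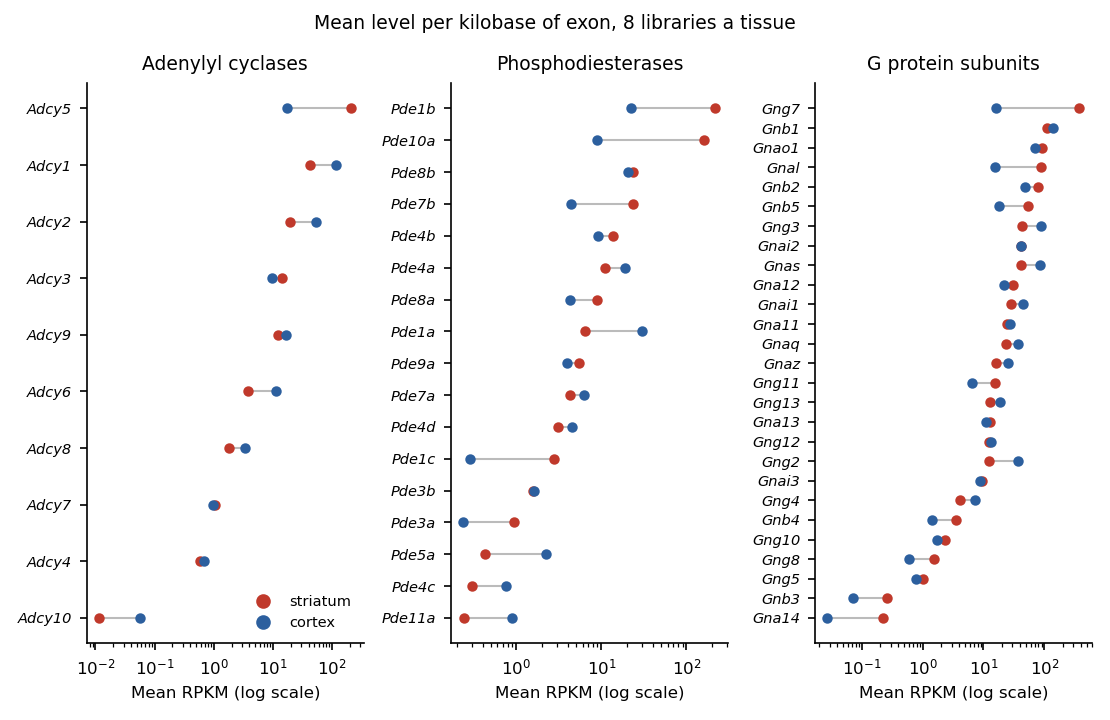
Mean level per kilobase of exon (RPKM, log scale, 8 libraries a tissue) of adenylyl cyclases, phosphodiesterases and G protein subunits, sorted by the striatal level; red is striatum, blue is cortex and a grey line joins both. Adcy5, Pde1b, Pde10a, Gng7 and Gnal lie far to the right in striatum, while Adcy1, Pde1a and Gnas lie to the right in cortex. Pde2a is not drawn.

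RGS proteins, which switch G proteins off, were called 10 of 18 higher in striatum and 8 higher in cortex (median 0.29). Beside Rgs9, Rgs2 (2.25), Rgs8 (1.93) and Rgs14 (1.18) were higher in striatum, whereas Rgs6 (-1.39) and Rgs7 (-1.02), relatives of Rgs9, were higher in cortex. Rgs4 was the most abundant member per length in both tissues, at 185.4 RPKM in striatum and 143.4 RPKM in cortex. Of 18 Ras and Rap regulators 7 were called higher in striatum and 9 in cortex (median -0.12). Rasgrp2, a Rap exchange factor, had 232, 274 and 328 CPM in striatum and 13.9, 17.8 and 22.1 CPM in cortex (3.97 ± 0.059, adjusted p = 8.21e-17). Rap1gap was higher in striatum (1.17) and its relative Rap1gap2 higher in cortex (-1.37). The Ras exchange factor Rasgrf2 (-2.72) and the small GTPase Rasl10a (-2.81) were lower in striatum.

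Transcription factors of the ventral telencephalon were nearly all higher in striatum, several of them from near 0 in cortex. Of 26 tested factors of that lineage 23 were called higher in striatum and 1 higher in cortex (median 2.55). Six3, a homeobox gene of the basal forebrain, had 85.1, 97.9 and 127 CPM in striatum and 0, 0.049 and 0.135 CPM in cortex. The difference of 10.56 ± 0.11 (adjusted p = 8.58e-22) was the largest fitted value among the genes chosen by rank. Six3os1, its divergent antisense neighbour, differed by 9.61, and reads of these neighbours are uncertain because the strand setting of the counting is not given. Isl1, a LIM-homeobox gene of direct-pathway and cholinergic neurons, had 5383 counts over the 8 striatum libraries and 3 over the 8 cortex libraries. That is a ratio of 1650 (95% interval 564 to 8000, counting error only). Lhx8, a LIM-homeobox gene of cholinergic neurons, had 2844 counts against 1, a ratio of 2610 (469 to 103000).

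Retinoid receptors belonged to the same group: Rxrg had 93.2, 127 and 151 CPM in striatum and 0.82, 1.12 and 1.6 CPM in cortex (6.77 ± 0.086, adjusted p = 1.59e-17). Rarb differed by 4.37, with 38.4% of its exon length overlapping antisense genes. Nkx2-1, of the medial ganglionic eminence, differed by 6.31, Meis2 by 2.94, Bcl11b (Ctip2) by 3.26 and Foxp1 by 1.44. The distal-less genes were split, with Dlx6 at 2.95 and Dlx5 at 2.22 but Dlx1 at -0.75 ± 0.068 (adjusted p = 9.44e-08), higher in cortex. Dlx1 libraries overlapped, from 10.9, 13.1 and 20 CPM in striatum to 18.6, 23.1 and 26.9 CPM in cortex. In the wider retinoid list 10 of 17 genes were called higher in striatum and 5 in cortex (median 0.30). The binding protein gene Crabp1 was higher in striatum by 5.26, and the retinaldehyde dehydrogenase Aldh1a3 was higher in cortex (-3.23).

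On the cortical side, most listed transcription factors of pyramidal neurons were higher than in striatum. Of 28 cortical factors 24 were called higher in cortex, against 35% of all tested genes, and 3 higher in striatum (median -1.68). Neurod2, a basic helix-loop-helix factor, had 0.297, 1.78 and 6.03 CPM in striatum and 67.3, 86.7 and 109 CPM in cortex (-5.32 ± 0.24, adjusted p = 2.78e-11). Emx1 differed by -6.12, Neurod1 by -5.98, Bhlhe22 by -5.33, Neurod6 by -5.02 and Tbr1, of deep layers, by -4.96. Cux2 of upper layers differed by -3.40 and Fezf2 of subcerebral neurons by -2.77. Mef2c, at -2.18, was still at 153, 169 and 201 CPM in striatum. The exceptions were Tle4 (1.61), Pou3f1 (1.03) and Etv1 (0.21), called higher in striatum; for Etv1 the adjusted p was 0.0646 without animals 1, 3 and 5.

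Several textbook layer markers had higher levels in striatum than in cortex. Of 28 markers of cortical excitatory neurons 21 were called higher in cortex and 7 higher in striatum (median -1.96). Slc17a7, the vesicular glutamate transporter VGLUT1, had 12.5, 41.7 and 98.3 CPM in striatum and 1138, 1279 and 1369 CPM in cortex (-4.82 ± 0.24, adjusted p = 8.78e-11). The zinc transporter of glutamatergic vesicles, Slc30a3, had 0.475, 0.883 and 3.7 CPM against 98.1, 117 and 127 CPM (-6.40 ± 0.19, adjusted p = 1.53e-13). Foxp2, a layer 6 marker in cortex, had 69.3, 79 and 88.5 CPM in striatum and 4.29, 6.1 and 6.32 CPM in cortex (3.79 ± 0.075, adjusted p = 1.81e-15). Crym (3.70), Syt6 (3.67), Nxph4 (2.56) and Lmo3 (1.73) were likewise higher in striatum, and none of their libraries overlapped. The striatal level of cortical markers varied with the animal: the sum of 9 such genes was 7.17% of its cortex level in animal 4 and 0.906% in animal 8. The part of this variation in the size of cortical differences was not tested.

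**Figure D4:**
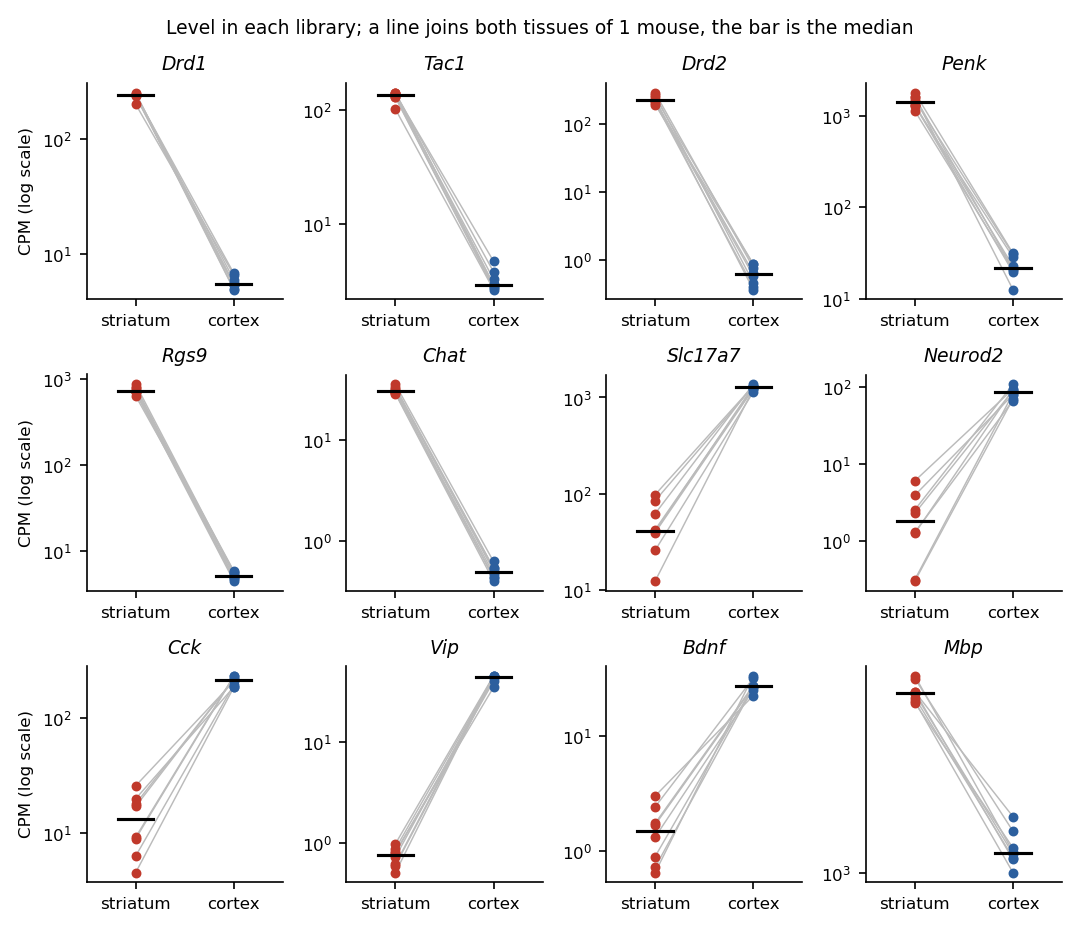
Level of 12 genes in each library (CPM, log scale); a grey line joins both tissues of 1 mouse and the black bar is the median of 8. The striatum and cortex libraries do not overlap for any of the 12, and the spread of Slc17a7, Neurod2, Cck and Bdnf is wider in striatum than in cortex.

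Neuropeptide genes were called in both directions. Of 20 precursors tested 9 were called higher in striatum and 11 higher in cortex (median -0.43). Beside Penk, Tac1 and Pdyn, neurotensin (Nts) was higher in striatum, with 4.45, 6.04 and 16.4 CPM against 0, 0.059 and 0.151 CPM (6.84 ± 0.23, adjusted p = 4.29e-15), as was the thyrotropin-releasing hormone gene Trh (3.56). Cck, the cholecystokinin gene of pyramidal cells and interneurons, had 4.54, 13.1 and 25.7 CPM in striatum and 184, 212 and 231 CPM in cortex (-4.03 ± 0.22, adjusted p = 1.94e-10). Vip, of a class of cortical interneurons, had 0.505, 0.754 and 0.977 CPM against 35.3, 44.8 and 45.9 CPM (-5.88 ± 0.079, adjusted p = 2.54e-17). Both lay wholly below their cortical range in striatum. The PACAP gene Adcyap1 (-5.12), Grp (-3.47), Cort (-2.89), Crh (-2.41) and Tac2 (-1.82) were also higher in cortex. Sst and Npy differed less, at 0.21 and -0.55, with overlapping libraries, although Npy was lower in striatum in every mouse.

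Peptide receptors were called 14 of 31 higher in striatum and 14 higher in cortex (median -0.05), where all tested genes gave 37% and 35%. Tacr1, the substance P receptor, had 43.6, 48.4 and 56.5 CPM in striatum and 1.79, 2.19 and 2.8 CPM in cortex (4.47 ± 0.059, adjusted p = 2.16e-17). The kappa opioid receptor gene Oprk1 (3.48) and the mu receptor gene Oprm1 (2.22) were higher in striatum, and the delta receptor gene Oprd1 differed by 0.38. Galr1 (4.63) and Mc3r (3.77) were higher in striatum from medians of 1.57 and 1.34 CPM. In cortex the cholecystokinin receptor gene Cckbr (-3.38), the somatostatin receptor gene Sstr3 (-3.69), the corticotropin-releasing hormone receptor gene Crhr1 (-2.18) and the neuropeptide Y receptor gene Npy1r (-1.53) were higher. Ligand and receptor were higher in the same tissue for Tac1 and Tacr1, Pdyn and Oprk1, Cck and Cckbr, and Crh and Crhr1. Other pairs went opposite ways: Vip was higher in cortex and its receptor gene Vipr2 in striatum (2.11), and Nts was higher in striatum and its receptor gene Ntsr1 in cortex (-1.19). Sstr3 was higher in cortex although Sst stood at 0.21. These pairs were picked from the lists after their values were seen.

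Receptors for serotonin, acetylcholine, noradrenaline, adenosine, histamine and cannabinoids were called 15 of 35 higher in striatum and 18 higher in cortex (median -0.36). Serotonin receptors split by subtype. Htr1b, an autoreceptor and terminal receptor, had 88.1, 105 and 130.5 CPM in striatum and 5.78, 9.07 and 14.2 CPM in cortex (3.56 ± 0.089, adjusted p = 2.62e-14). Htr1d (5.11), Htr4 (4.14) and Htr2c (2.57) were higher in striatum, and Htr1a (-2.38), Htr3a (-2.61) and Htr5a (-1.72) in cortex. Among muscarinic receptors Chrm4 was higher in striatum and Chrm3 in cortex (-2.25 ± 0.057, adjusted p = 2.67e-14). Adrenergic genes differed too, with Adra2c at 1.88 and Adra1d at -3.57. Cnr1, the CB1 receptor of projection neuron terminals and interneurons, had 295, 422 and 475 CPM in striatum and 110.2, 125 and 139.7 CPM in cortex (1.67 ± 0.073, adjusted p = 1.62e-11). Adora1, unlike Adora2a, was abundant in both tissues and moderately higher in cortex (-0.69). It had 195.5 to 244.3 CPM in striatum and 329.7 to 395 CPM in cortex, with 20.1% of its exons overlapping an antisense gene.

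Cholinergic interneuron genes were higher in striatum in every measured case. All 11 were called higher in striatum (median 5.97), and 10 of them, all but Zic4, without animals 1, 3 and 5 (median 5.63). Chat, which makes acetylcholine, had 28.6, 30.7 and 35.4 CPM in striatum and 0.4, 0.489 and 0.625 CPM in cortex (5.97 ± 0.062, adjusted p = 2e-18). The choline transporter Slc5a7 (5.51), the vesicular acetylcholine transporter Slc18a3 (5.14) and the orphan transporter Slc10a4 (8.84) had the same direction. Slc17a8, the glutamate transporter VGLUT3 of these cells, differed by 3.57, and Ecel1 by 4.41. Gbx2, also a thalamic gene, differed by 6.28, with 43.4% of its exons overlapping an antisense gene.

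Other interneuron markers were called 7 of 18 higher in striatum and 10 higher in cortex (median -0.57). Nos1 was higher in striatum (1.47 ± 0.047, adjusted p = 3.51e-13), as was Reln (1.14). Pvalb had 24.5, 41.2 and 82.6 CPM in striatum and 61.1, 65.3 and 70 CPM in cortex, with 1 of 8 mice higher in striatum (-0.59 ± 0.13, adjusted p = 0.000944). Lamp5 was higher in cortex (-1.63).

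GABA synthesis was higher in striatum, but GABA-A receptor subunits divided between the regions. Of 21 genes 12 were called higher in striatum and 7 in cortex (median 0.21). Gad2 had 458, 529 and 731 CPM in striatum and 139, 177 and 209 CPM in cortex (1.66 ± 0.044, adjusted p = 4.86e-14), and Gad1 differed by 1.12. The vesicular GABA transporter gene Slc32a1 differed by 1.62, with 24.9% of its exons overlapping an antisense gene. The receptor subunits Gabra4 (0.98) and Gabrg3 (1.09) were higher in striatum, and Gabra3 (-1.59) in cortex. Gabbr2, an obligate GABA-B subunit, was higher in cortex (-2.06 ± 0.11, adjusted p = 1.11e-10), whereas its partner Gabbr1 differed by 0.21.

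Glutamate receptors were called 10 of 22 higher in striatum and 11 in cortex (median -0.06), against 37% and 35% of all tested genes. Grm2, a presynaptic receptor, had 1.48, 2.19 and 5.67 CPM in striatum and 59.9, 74.1 and 85.2 CPM in cortex (-4.82 ± 0.15, adjusted p = 2.14e-13). The group I receptor gene Grm5 (1.23), the AMPA subunit Gria1 (1.06) and the kainate subunit Grik2 (1.73) were higher in striatum. Of the NMDA subunits Grin2a was higher in cortex (-1.27), and Grin1 (-0.23) and Grin2b (-0.18) differed little. Slc17a6, VGLUT2 of thalamic neurons, spanned 1.27, 10.3 and 59.4 CPM in striatum around 25.2, 28.5 and 32.1 CPM in cortex. Its call (-0.88 ± 0.37, adjusted p = 0.045) was lost without animals 2, 4, 6, 7 or 8 in turn, with adjusted p from 0.0845 to 0.109, and without the animal block (0.286).

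Ion channels divided within families. Of 49 potassium channel genes 16 were called higher in striatum and 30 higher in cortex (median -0.49). Kcna5 had 18.8, 21.9 and 26.9 CPM in striatum and 0.27, 0.352 and 0.703 CPM in cortex (5.71 ± 0.092, adjusted p = 2.35e-16). Kcna4 (2.59), the auxiliary subunit Kcnab1 (2.86) and the inward rectifier Kcnj2 (1.99) were also higher in striatum. The GIRK channels, opened by G protein beta-gamma subunits, were higher in cortex, with Kcnj6 at 1.41, 2.11 and 3.2 CPM in striatum and 31.9, 37.5 and 42.7 CPM in cortex (-4.07 ± 0.1, adjusted p = 2.27e-14). Kcnj3 (-2.39, 31.1% antisense overlap) and Kcnj9 (-2.29) had the same direction, as did Kcnh7 (-2.85) and Kcnab3 (-2.88). Kcna6 was at 0.12; its adjusted p of 0.0105 became 0.0944 without the animal block and 0.191 without animals 1, 3 and 5.

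Sodium, calcium and calcium release channels were called 20 of 39 higher in striatum and 15 in cortex (median 0.28). Scn4b, the sodium channel beta subunit linked to resurgent current, had 1105, 1411 and 1563 CPM in striatum and 115, 144 and 181 CPM in cortex, without overlap. T-type calcium channels diverged, with Cacna1h at 2.17 and Cacna1g at -2.56. Ryanodine receptors diverged too: Ryr3 had 281, 334 and 365 CPM in striatum and 23.1, 25.1 and 28.9 CPM in cortex (3.66 ± 0.06, adjusted p = 2.62e-16), and Ryr1 differed by 2.97. Ryr2, the main brain and heart form, was higher in cortex (-1.22 ± 0.044, adjusted p = 1.81e-12). The AMPA receptor auxiliary subunit Cacng4 (2.57) was higher in striatum.

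Synaptic genes were called in both directions, with more of them higher in cortex. Of 31 vesicle and release genes 10 were called higher in striatum and 18 in cortex (median -0.35). Stx1a, a plasma membrane SNARE, had 25.5, 28.5 and 39.8 CPM in striatum and 274, 313 and 329.6 CPM in cortex (-3.40 ± 0.067, adjusted p = 1.81e-15). Sv2c (3.05), Doc2b (3.75) and Unc13c (2.34) were higher in striatum. Sv2b (-1.48), Rims3 (-2.29), Snap25 (-1.19) and Syt1 (-0.83) were higher in cortex. The postsynaptic list was called 11 of 27 higher in striatum and 14 in cortex (median -0.10). Shank1 had 139.9, 199.6 and 279.6 CPM in striatum and 966, 1187 and 1394 CPM in cortex (-2.59 ± 0.089, adjusted p = 8.49e-13), whereas its relative Shank3 was higher in striatum (0.55 ± 0.034, adjusted p = 1.09e-09). CaM kinase II subunits split likewise, with Camk2a at -1.34 and Camk2g at -1.78 but Camk2b at 0.82. Camk2b libraries overlapped between tissues, although all 8 mice had more in striatum. The actin-binding genes Actn2 (4.17) and Ppp1r9a (1.15) and the striatal-enriched phosphatase Ptpn5 (1.55) were higher in striatum, and Dlgap1 (-1.86) in cortex.

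**Figure D5:**
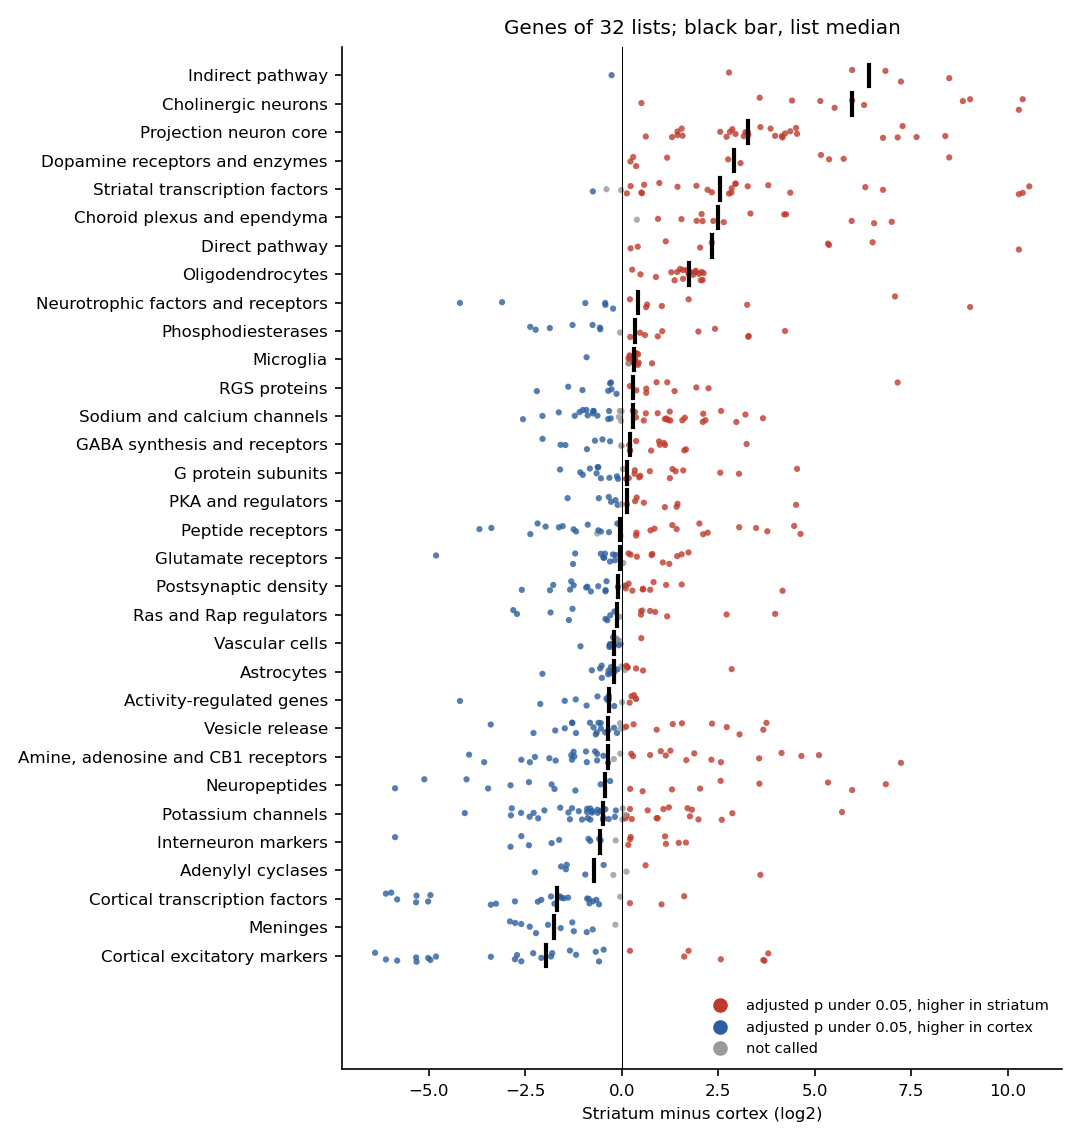
Difference (log2, striatum minus cortex) of each tested gene in 32 lists, sorted by list median (black bar); red genes were called higher in striatum, blue genes higher in cortex and grey genes were not called. Projection neuron, cholinergic, choroid plexus and oligodendrocyte lists lie to the right, cortical excitatory, cortical factor and meningeal lists to the left, and signalling and channel families spread to both sides of 0.

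Myelin genes were higher in striatum as a group. All 21 oligodendrocyte genes were called higher there, 18 of them at least 2-fold, with a median of 1.73 and 1.64 without animals 1, 3 and 5. Mbp, myelin basic protein, had 3647, 3937 and 4477 CPM in striatum and 1000, 1163 and 1532 CPM in cortex (1.73 ± 0.057, adjusted p = 6.15e-13). Mobp (2.10) and Fa2h (2.12) were similar, and the lineage factors Olig1 (0.48) and Olig2 (0.27) differed less. Among precursor and early myelinating markers Enpp6 (2.20) and Bcas1 (1.54) were at least 2-fold higher in striatum, and 6 of 8 were called higher (median 0.34). The summed oligodendrocyte level ran from 8321 to 10390 CPM in striatum and from 2362 to 3632 CPM in cortex, highest in the cortex of animal 7.

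Astrocyte, microglial and vascular markers differed by small amounts. Of 20 astrocyte genes 6 were called higher in striatum and 12 in cortex (median -0.21). The glutamate transporter Slc1a2 (-0.52) and glutamine synthetase Glul (-0.56) were higher in cortex, and the bicarbonate transporter Slc4a4 (0.55) in striatum. Agt, angiotensinogen, had 24.8, 29.2 and 35 CPM in striatum and 2.59, 4.24 and 5.27 CPM in cortex (2.85 ± 0.074, adjusted p = 3.63e-14), and Chrdl1 went the other way (-2.06 ± 0.045, adjusted p = 5.23e-15). Of 22 microglial genes 20 were called higher in striatum, against 37% of all tested genes, none by 2-fold, and 1 in cortex (median 0.31). Cx3cr1 differed by 0.27 and the lysosomal protease Ctss by 0.44, and both overlapped between tissues. Without the animal block the adjusted p of Ctss was 0.0785. Fcrls was the exception, at -0.92 ± 0.2 (adjusted p = 0.00086; 0.0527 without the animal block). Vascular genes were called 12 of 17 higher in cortex and 1 in striatum (median -0.20), with Cldn5 at -0.25 and Anpep at -1.07.

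Markers of tissues that border the dissected regions divided as well. Meningeal fibroblast genes were called 11 of 12 higher in cortex (median -1.75), among them Slc22a6 (-2.90) and Fmod (-2.77). Their sum ran from 93.5 to 267.5 CPM in cortex and from 61.5 to 96.0 CPM in striatum. Choroid plexus and ependymal genes were called 13 of 14 higher in striatum (median 2.50, and 1.95 without animals 1, 3 and 5). Ttr, transthyretin of the choroid plexus, ranged widely, with 21.2, 70 and 353 CPM in striatum and 4.34, 4.89 and 15 CPM in cortex (3.33 ± 0.33, adjusted p = 2.68e-07). The ciliary genes Foxj1 (2.09) and Ccdc153 (6.99) were higher in striatum. Thalamic genes were called 6 of 7 higher in striatum (median 1.61, and 0.93 without animals 1, 3 and 5). Prkcd had 17, 47.8 and 244 CPM in striatum and 7.23, 7.83 and 14.3 CPM in cortex (2.74 ± 0.38, adjusted p = 9.67e-06), and Tcf7l2 differed by 1.60. Of 13 neuroblast and progenitor markers 6 were called higher in striatum and 5 in cortex (median -0.02), beside 37% and 35% of all tested genes. Among them Mki67 (2.77 ± 0.23, adjusted p = 3.43e-08) and Top2a (3.10 ± 0.18, adjusted p = 3.49e-10), genes of dividing cells, were higher in striatum. Dcx, of young neurons, was higher in cortex (-0.93 ± 0.06, adjusted p = 1.72e-09).

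Neurotrophic genes were called in both directions, among ligands as well as among receptors. Of 14 tested 8 were called higher in striatum and 6 in cortex (median 0.42). Bdnf had 0.642, 1.5 and 3 CPM in striatum and 22.5, 27.1 and 33.5 CPM in cortex (-4.20 ± 0.18, adjusted p = 1.22e-11), whereas its receptor gene Ntrk2 stood at 704, 753 and 796 CPM in striatum and 810.4, 889.9 and 947 CPM in cortex (-0.23 ± 0.031, adjusted p = 9.07e-06). Gdnf, a survival factor for dopamine neurons, had 4.25, 6.08 and 6.8 CPM in striatum and 0, 0.035 and 0.0944 CPM in cortex (7.08 ± 0.2, adjusted p = 1.19e-17). Its receptor kinase Ret (1.73) and the neurotrophin receptor Ngfr (3.25) were higher in striatum, and Gfra2 (-3.11) in cortex.

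Activity-regulated genes were called 4 of 17 higher in striatum and 11 in cortex (median -0.34). Arc had 80.3, 154 and 272 CPM in striatum and 228, 422 and 701 CPM in cortex, overlapping over libraries but lower in striatum in 8 of 8 mice (-1.48 ± 0.083, adjusted p = 3.12e-10). Fos (-1.20) and Egr1 (-0.36) had the same direction. Of 17 clock genes 5 were called higher in striatum and 8 in cortex (median -0.08). Npas2 (0.44 ± 0.035, adjusted p = 2.43e-08) and Dbp (0.83 ± 0.043, adjusted p = 1.2e-10) were higher in striatum, Bhlhe40 (-1.51 ± 0.054, adjusted p = 1.34e-12) was higher in cortex, and Arntl was not called (-0.01 ± 0.046, adjusted p = 0.924).

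Guidance and adhesion genes had shares of calls near those of all tested genes (37% and 35%) on the striatal side. Of 19 Eph receptors and ephrins 7 were called higher in striatum and 10 in cortex (median -0.34), with Efnb3 at 2.16, Epha10 at -2.41 and Ephb3 at -2.17. Cadherins were called 6 of 17 higher in striatum and 10 in cortex (median -0.32), with Cdh13 at 1.92 and Cdh12 at -2.33. Mouse Htt itself was slightly higher in cortex, with 183, 201 and 208 CPM in striatum and 214, 234 and 253 CPM in cortex (-0.24 ± 0.032, adjusted p = 6.92e-06). Its partner gene Hap1 was higher in striatum (1.17 ± 0.06, adjusted p = 9.86e-11).

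The largest differences of all, taken by rank among genes averaging 1 CPM or more over the 16 libraries, were mostly genes at or near 0 in one tissue. Beside those described, the striatal end held Dsg1c, a desmosomal cadherin with 670 counts in striatum and 0 in cortex, at least 205-fold higher against the floor of 3 counts over the group. Ptpn7, a tyrosine phosphatase better known from blood cells, had 8.82, 12 and 15.1 CPM in striatum and 0, 0.0317 and 0.0673 CPM in cortex (8.42 ± 0.15, adjusted p = 4.43e-23). Cd4, the T cell co-receptor gene, had 84.5, 98.3 and 124 CPM in striatum and 0.254, 0.452 and 0.595 CPM in cortex (7.76 ± 0.083, adjusted p = 2.48e-18). Frem3, an extracellular matrix gene, spread more, with 2.05, 7.8 and 14.1 CPM against 0, 0.035 and 0.157 CPM (7.18 ± 0.17, adjusted p = 5.89e-18). Its striatal level was highest in animal 5 and lowest in animal 6, as was the thalamic marker sum. The part of thalamic tissue in its difference was not tested.

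At the cortical end Akr1c18, a hydroxysteroid dehydrogenase, had 1003 counts in cortex and 1 in striatum, a ratio of 1090 (95% interval 195 to 43200, counting error only). Igfn1, an immunoglobulin and fibronectin domain gene, had 0.0891, 0.237 and 1.11 CPM in striatum and 69.7, 85.6 and 152 CPM in cortex (-7.84 ± 0.16, adjusted p = 2.62e-15). Tmem215 (-6.37), the metalloprotease Adam33 (-6.42), the zinc finger gene Ovol2 (-6.29), the kinase Mylk3 (-6.17), Shisa3 (-6.54), Bglap3 (-6.95), Clec18a (-5.83) and Prg4 (-5.84) followed. In cortex Prg4 ran from 0.39 CPM in animal 4 to 5.69 CPM in animal 6. The meningeal sum in cortex was also lowest in animal 4, at 93.5 CPM, and highest in animal 7, at 267.5 CPM. The part of meningeal tissue in the Prg4 difference was not tested. Ntn5 differed by -7.38, with 23.4% of its exons overlapping an antisense gene.

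The same regional differences were measured in other mice of the series. Of the 2871 genes at least 2-fold apart, 2814 were tested in 5 WT mice of 2 months, and 99.64% had the same sign and 87.1% were also 2-fold there. In 8 WT mice of 12 months 99.96% of 2840 had the same sign and 82.46% were 2-fold, and in 8 BAC-CAG littermates of 6 months 100% of 2812 and 89.08%. Over all genes tested in those mice the at least 2-fold share was 16.7%, 15% and 15.5%. Ages were deposited in separate tables, so age and table cannot be told apart. Drd2 ran from 229 to 312.2 CPM in striatum at 2 months and from 155.7 to 228.7 CPM at 12 months, beside 189.4 to 281.4 CPM at 6 months.

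Tests of the difference itself, by interaction terms, called no gene for sex or genotype in edgeR. For sex (4 females, 4 males) 0 of 18716 genes were called (0%), with 791 at an unadjusted p under 0.05 in edgeR and 1 called by DESeq2. The smallest adjusted p was 0.27, for Kcnip3, a calcium-binding channel partner with 71.7, 81.4 and 108 CPM in striatum and 74.8, 82.8 and 97.1 CPM in cortex. For genotype 0 of 18662 genes were called (0%), with 1013 at an unadjusted p under 0.05 and 3 called by DESeq2. There the smallest was 0.119, for the desmosomal gene Pkp2, whose regional difference changed by -1.28 in BAC-CAG mice.

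Between 6 and 2 months 151 of 19062 genes were called (0.792%), 53 with a more positive (0.278%) and 98 with a more negative (0.514%) regional difference at 2 months. This count varied with the fit, from 42 without the animal block to 388 in DESeq2, and from 31 (without animal 3) to 431 (without animal 6) when single 6-month animals were left out, where only without animal 5 (113) did it stay within 1.5-fold. Megf11 was higher in striatum at 6 months (0.94) and stood at 9.74 to 15.6 CPM in striatum and 12.2 to 19.6 CPM in cortex at 2 months, a change of -1.27. Met, the hepatocyte growth factor receptor, was further below cortex at 2 months, at 0.260 to 0.552 CPM in striatum, a change of -1.97. Klhdc8a (-1.0), Plcl1 (-0.48), Plagl1 (-0.54), the matrix gene Sparc (-0.60) and Lmtk3 (0.31) were also called, as was Kcna6 (-0.56). Of 9 thalamic markers 1 was called, and their median change was -1.555. That gene, Ramp3, had 2.88, 7.59 and 20.7 CPM in striatum at 6 months and 1.98 to 6.60 CPM at 2 months, a change of -2.24. The part of thalamic tissue in these calls was not tested.

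Between 6 and 12 months 377 of 18922 genes were called (1.99%), 237 with a more positive (1.25%) and 140 with a more negative (0.74%) regional difference at 12 months. The count was 169 without the animal block, 599 in DESeq2 and 180 to 507 with single 6-month animals left out, lower by over 1.5-fold without animal 1 (207), 3 (218), 7 (192) or 8 (180). Gpr155, a lysosomal membrane protein gene, changed by -0.56. In cortex it was at 46, 47.5 and 51.8 CPM at 6 months and at 58.3, 62.8 and 66.9 CPM at 12 months. In striatum it was at 165.6, 202.7 and 237.8 CPM at 6 months and at 152, 182.1 and 193.9 CPM at 12 months. The clock gene Arntl was below cortex at 12 months, with 23.7 to 32.2 CPM in striatum against 36.3 to 44.4 CPM in cortex, a change of -0.47. Zmynd8 (0.32), Tnks1bp1 (0.37), Nuak1 (0.43), Cys1 (0.57), Tbc1d2 (0.87) and Coch (-0.78) were also called. Smaller ratios at 12 months were called for Six3os1 (-4.58), Slc10a4 (-2.52), Sh3rf2 (-2.33) and Ptpn7 (-2.06). In 1 cortex library of 12 months the sum of the 9 striatal genes, among them Slc10a4, Sh3rf2 and Ptpn7, was 75.8 CPM. That was 4.58% of the striatal level, against a median of 0.688%. Without that animal the changes were -3.24 (adjusted p 0.0954), -1.91 (0.0152), -1.69 (0.0028) and -1.63 (0.1), and 289 genes were called, 268 of them in both sets.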

How the data were processed

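Per the labels, whole-number counts of read pairs per gene were deposited by the authors as 1 table for each age; per the submitters' processing notes these were made with STAR and HTSeq on GRCm38 (mm10). Tool versions and the strand setting of the counting are not given in the sources used here, so reads of overlapping antisense genes are marked as uncertain. The 16 libraries of WT mice at 6 months held 25.8 M to 42.8 M counts; 95% intervals and the floor of 3 counts cover counting error only.

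Genes were filtered with filterByExpr, scaled by TMM and tested with edgeR 4.0.16 (R 4.3.3), by the quasi-likelihood F test with animal and tissue terms. Benjamini-Hochberg adjustment covered all tested genes. SE is the difference divided by the root of F. The animal tag pairs both tissues of a mouse; deviations of the paired libraries from their tissue means correlated at r = 0.23 to 0.57 in all 8 pairs, and 7 of 8 correlated best with their own animal. No library duplicated another. Sex labels matched sex-linked genes in all 16 libraries. RPKM divides CPM by the exon length of GENCODE M21. CPM of the other ages and of BAC-CAG mice were scaled by TMM within the libraries of that group of mice only. On simulated counts with 17711 genes the test recovered 100 of 100 genes changed by 1 and 94 of 100 changed by 0.5 (log2). With 18350 genes in the simulated sex interaction it recovered 95 and 41 of 100. False calls numbered 9 in the first simulation and 8 in that of the sex interaction. Recovery at the gene-by-gene spread of the measured libraries was not tested.

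Genes named are members of gene lists, the 15 largest differences a direction (mean of at least 1 CPM, same direction in all 8 animals, no predicted genes), the 10 smallest p and up to 8 genes for each interaction. Ramp3, Prkcd and the genes with lost calls are list members. Some genes that the rule names are not reported here. The members and lists were chosen with earlier results of these data known. Alternatives were DESeq2 1.42.0, limma-voom (limma 3.58.1), other scalings and filters, fits without the block, leaving out each animal and, chosen after seeing the data, leaving out animals 1, 3 and 5 or 1 animal of 12 months. BACHD libraries were not analysed here. The series' text speaks of 3 mice of each sex and the labels give 4. Replicates are separate animals.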

Additional observations from a re-analysis of the deposited data

Results flagged for a closer look

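Single animals stood apart by Dixon's criterion in 17 of 271 named genes and 3 of 34 summed marker levels. Chance flags about 1 in 20 such groups. Animal 5 accounted for 11 of the 17 genes, as the difference of its striatum from its cortex (log2 of CPM plus 0.1). Its value was below that of the other 7 mice for Rxrg (5.78 against 6.62 to 7.17), Htr1d (3.54), Six3os1 (7.07), Ptpn7 (5.77), Sp9 (2.14), Kcna4 (2.29), Gnal (2.20), Lmo3 (1.04) and Itpr1 (0.399). It lay above the others, nearer to 0, for Adcy8 (-0.046 against -1.39 to -0.821) and Zmynd8 (-0.764). In its striatum the direct-pathway sum was 582.1 CPM against 677.5 to 735.4 CPM, and the choroid plexus and ependymal sum 459.7 CPM against 77.1 to 154.5 CPM. Its thalamic sum, 440.5 CPM, was the highest of the 8; the part of these tissues in the lower values was not tested. The other outlying values were Akap5 in animal 4 (1.58), Mylk3 in animal 1 (-6.69), Akr1c18 in animal 2 (-6.05), Shank3 in animal 6 (0.738), and in animal 7 Ctss (-0.0251), Efnb3 (1.75) and the oligodendrocyte sum of cortex (3632 CPM against 2362 to 2906 CPM).

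The regional difference of named genes differed between ages by the interaction test in edgeR, as a change of log2 against 6 months. At 2 months it was lower for Adra1d (-1.60), Frem3 (-2.94), Ramp3 (-2.24), Met (-1.97), Ret (-1.28), Megf11 (-1.27), Klhdc8a (-1.0), Sh3rf2 (-0.997), Adcy8 (-0.872), Enpp6 (-0.871), Sparc (-0.597), Kcna6 (-0.558), Plagl1 (-0.541) and Plcl1 (-0.477). It was higher for Rap1gap (0.322) and Lmtk3 (0.311). At 12 months it was lower for Six3os1 (-4.58), Slc10a4 (-2.52), Sh3rf2 (-2.33), Ptpn7 (-2.06), Coch (-0.778), Gpr155 (-0.561), Kcna4 (-0.512), Rarb (-0.498), Arntl (-0.465), Tle4 (-0.436), Gabra4 (-0.424), Gnal (-0.341), Hrh3 (-0.331), Rasgrp1 (-0.327), Rgs8 (-0.285) and Gabrg3 (-0.256). It was higher for Adam33 (1.16), Crh (1.08), Tbc1d2 (0.871), Rasgrf2 (0.628), Cux2 (0.601), Cys1 (0.570), Epha10 (0.533), Nuak1 (0.427), Ephb3 (0.373), Tnks1bp1 (0.368), Zmynd8 (0.324) and Lmtk3 (0.213). Without the 12-month animal whose cortex held the most striatal transcripts, the adjusted p of 7 of these genes was 0.05 or more: Rarb (0.0731), Gnal (0.0679), Gabrg3 (0.0704), Six3os1 (0.0954), Ptpn7 (0.1), Adam33 (0.0679) and Crh (0.0795).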

How the results depend on the processing

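The fits with and without the animal block gave close counts of regional calls: without the block, with tissue and sex terms, 6051 genes were higher in striatum and 5762 in cortex, and 1446 and 1420 at least 2-fold. Without the block the interaction with age gave 42 genes in place of 151 at 2 months and 169 in place of 377 at 12 months. DESeq2 gave 388 and 599 there, 1 for sex and 3 for genotype. Without the filter on low counts 2187 genes were at least 2-fold higher in striatum and 2233 in cortex, and 1 gene was called for genotype. A test against a 2-fold threshold (glmTreat) called 1156 and 1050.

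Leaving out each animal in turn gave 31 to 431 age calls for 2 months (31 without animal 3, 431 without animal 6) and 180 to 507 for 12 months. The difference in total counts ran from 1.80 to 2.59 M. Arntl ran from -0.05416 to 0.0310 and Kcnip3 from -0.04995 to 0.0613, both near 0 and not called, and Arntl was 0.0274 without animals 1, 3 and 5. Of 271 named genes the regional call or direction changed in 26 of 4873 fits, among Arntl, Ctss, Etv1, Fcrls, Kcna6, Kcnip3, Plagl1, Slc17a6 and Sst. Of the genes at least 2-fold apart, 75.5% to 99.9% were found again under the alternatives, lowest with at least 1 CPM in 8 libraries. Low counts limit the ratios of genes near 0 in 1 tissue.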

Other observations

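Further genes of the lists were not described above. Among nicotinic and histamine receptors, Chrnb3 was higher in cortex (-3.96) and Chrnb4 (2.32) and Hrh3 (1.01) higher in striatum. Chrm5 differed by 4.65 and the GABA-A subunit Gabrq by 3.23, both higher in striatum. Hippocampal neuron markers were called 5 of 6 higher in striatum and 1 in cortex (median 1.16), and their sum ran from 216 to 326 CPM in striatum and from 91.6 to 161.5 CPM in cortex. Of 11 mitochondrially encoded genes tested 8 were called higher in striatum, with mt-Nd4 at 0.57, mt-Co2 at 0.56 and mt-Cytb at 0.53 (median 0.40), against 37% of all tested genes. Without animals 1, 3 and 5 this was 5 of 11 (median 0.29).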
